A study of Rattus norvegicus with 56 samples.

Results

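Potassium channel genes were examined in the hippocampus and parietal cortex of rats that had received intermittent theta burst stimulation (iTBS), a patterned magnetic stimulation of the brain, or a sham procedure. Members were all genes on the array whose rat symbol, found through the transcript accession of the probe and RefSeq, was Kcn followed by family letters and a number, with Kcnj13 left out. This gave 89 genes of 16581 named genes, measured by 128 probes, and the brightest probe stood for each gene. The rule itself used no measured difference, but it was chosen with earlier results of these data known.

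The animals were male Long-Evans rats, young (6 to 7 months) or aged (26 to 27 months), and the aged animals had been classed in a water maze as aged unimpaired (AU) or aged impaired (AI). Stimulated animals numbered 4 in the young (Y_iTBS), 5 in the AU (AU_iTBS) and 3 in the AI group (AI_iTBS). Each sham group (Y_Sham, AU_Sham, AI_Sham) had 4. Both regions were taken from each of the 24 animals 48 h after the procedure, and were matched by the group and number in the sample titles. The paper's methods give 8 young and 8 aged animals for this experiment, where the labels name 16 aged ones. All groups, sham included, were sedated with isoflurane and dexmedetomidine and then given Antisedan as the reversing agent. Dexmedetomidine and Antisedan were each given at 0.035 mg/kg to young and at 0.03 mg/kg to aged animals, so that age and drug dose cannot be told apart. The coil was held 8 mm above the skull for iTBS and away from the head for sham. The tissue was dissected whole, so a lower signal can mean fewer cells of a type or less RNA per cell, which cannot be told apart.

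Potassium channels let potassium ions cross the membrane and thereby set the resting potential, shape the action potential and limit repetitive firing. Voltage-gated (Kv) channels are built of pore-forming subunits, often with auxiliary subunits (Kv beta, KChIP, KCNE), and silent Kv subunits form no channel alone but assemble with Kv2 subunits. Calcium- and sodium-activated channels follow internal ions, inward rectifiers (Kir) hold the resting potential and include the G protein-gated GIRK channels, and K2P channels carry the background leak current.

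Levels are normalized signals on a log2 scale, on which 0 is the mean of an array, and they are compared between samples for 1 probe but never between probes. A gene was called where the adjusted p of limma's moderated test was under 0.05, with Benjamini-Hochberg adjustment over all probes tested. The labels do not say whether animals of a group shared a litter or a day, so p-values measure the spread between these animals.

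The signal was well above background on all 48 first arrays for 68 of the 89 genes, and on none of them for Kcna10, Kcne4 and Kcnj15. A further 5 genes (Kcne1, Kcnj1, Kcnj2, Kcnk18 and Kcnmb3) were above background on fewer than 3 arrays in each region. Of the members, 80 were tested in hippocampus and 81 in cortex and between regions. The median SD between animals of a group was 0.27 for members and 0.26 for all probes in hippocampus, and 0.35 for both in cortex. Kcne3 had the widest spread in both regions (1.67 in hippocampus and 1.48 in cortex), and was above background on 4 of 24 hippocampal and 5 of 24 cortical arrays.

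Of 11 hippocampus markers 9 were called higher in hippocampus in sham animals, and of 9 cortex markers 7 were called higher in cortex. On each array 59.3% to 69.7% of probes were well above background. A repeat array of cortex labelled AI_iTBS animal 2 did not match its first array (r = 0.097 over 1000 probes) and was left out. Among other animals this repeat was closest to AI_Sham animal 2 (r = 0.635). The mismatch does not show which array is mislabelled, and the first array was kept. Another array, whose labels disagreed on its group, entered no comparison.

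The first comparison asked in which region each channel gene was more abundant, within the 12 sham animals. Expression of 59 of 81 members differed between the regions (72.8%, against 36.0% of the 33725 probes tested, and 63 members against 44.5% of probes had an unadjusted p under 0.05). Of these, 19 were higher in hippocampus and 40 in cortex, where 19.2% and 16.7% of all probes were called in those directions. The median difference, hippocampus minus cortex, was -0.33 over the members and 0.03 over all probes. A difference of at least 2-fold was found in 21 called members, 8 higher in hippocampus and 13 in cortex. The ranges of the 12 animals did not overlap for 23 members, 5 higher in hippocampus and 18 in cortex, and for 5.29% of all probes. In 33 of the 59 called members all 12 animals had the same direction. This count and that of 2-fold differences are not set against all probes.

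**Figure D1:**
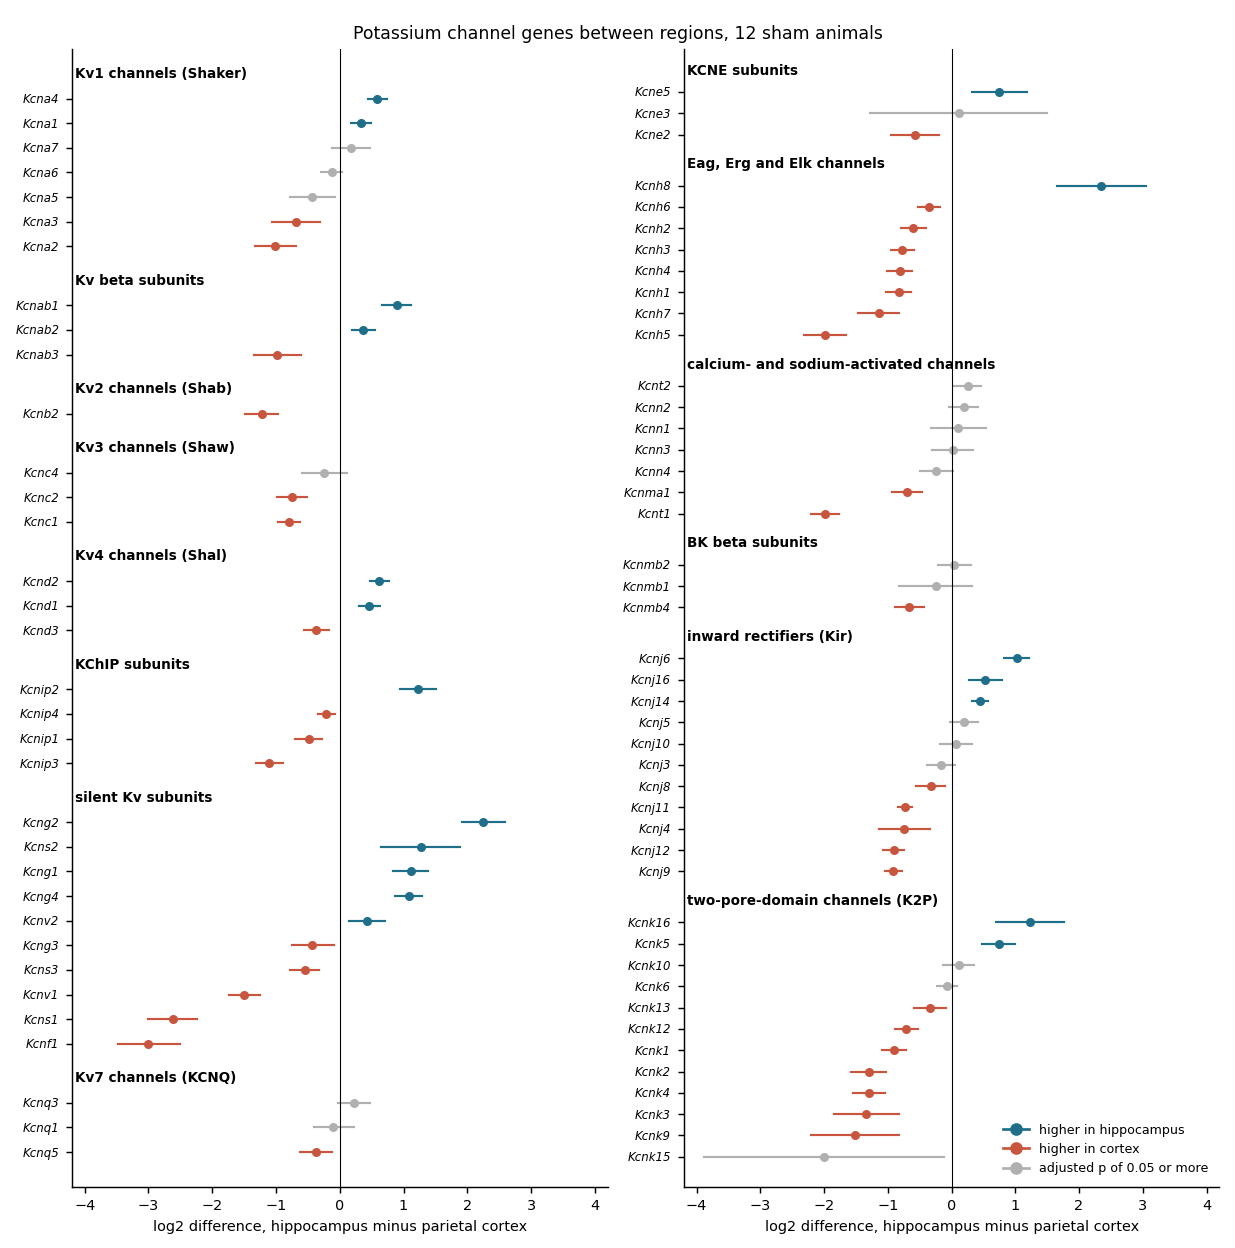
Difference between hippocampus and parietal cortex for tested potassium channel genes, by family, in the 12 sham animals. The x axis is the log2 difference (hippocampus minus cortex), points are estimates and lines 95% confidence intervals. Kcnf1 and Kcns1 lie farthest to the cortex side (-3.00 and -2.62) and Kcnh8 and Kcng2 farthest to the hippocampus side (2.35 and 2.25).

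The genes at both ends of this range are shown by the 250 bases upstream of their RefSeq start (build GRCr8), written 5′ to 3′ on the strand of the gene. Capitals mark a GC box (GGGCGG or its complement), an element bound by Sp1-type factors.
Kcnf1 (chr6:45693707-45693956, minus strand): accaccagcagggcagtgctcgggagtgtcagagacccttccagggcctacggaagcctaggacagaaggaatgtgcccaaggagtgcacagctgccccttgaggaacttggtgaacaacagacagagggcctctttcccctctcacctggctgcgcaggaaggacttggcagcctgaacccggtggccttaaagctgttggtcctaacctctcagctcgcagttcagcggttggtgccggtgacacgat
Kcns1 (chr3:173262347-173262596, minus strand): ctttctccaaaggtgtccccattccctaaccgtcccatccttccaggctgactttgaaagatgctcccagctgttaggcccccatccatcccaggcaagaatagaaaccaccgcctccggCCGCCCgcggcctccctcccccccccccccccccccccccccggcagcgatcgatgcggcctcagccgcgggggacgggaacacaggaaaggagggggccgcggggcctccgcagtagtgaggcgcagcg
Kcnh8 (chr9:5742433-5742682, plus strand): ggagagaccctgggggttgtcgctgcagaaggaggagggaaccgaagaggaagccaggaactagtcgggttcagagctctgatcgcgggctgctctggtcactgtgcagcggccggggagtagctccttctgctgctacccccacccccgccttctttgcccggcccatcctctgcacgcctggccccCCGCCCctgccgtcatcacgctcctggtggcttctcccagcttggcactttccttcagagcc
Kcng2 (chr18:76083689-76083938, minus strand): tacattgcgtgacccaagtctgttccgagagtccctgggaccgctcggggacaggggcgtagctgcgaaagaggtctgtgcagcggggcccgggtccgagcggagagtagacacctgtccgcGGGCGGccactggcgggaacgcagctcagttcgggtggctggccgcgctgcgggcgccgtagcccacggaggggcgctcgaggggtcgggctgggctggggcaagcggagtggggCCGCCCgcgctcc
RefSeq promoters were found for 61 of the 89 members. The GC box was present upstream of 30 of these (49.2%), against 32.4% of 27457 promoters of all genes. It was present in 17 of 27 promoters of members higher in cortex (63.0%) and in 6 of 15 of members higher in hippocampus (40.0%). The median GC content was 67.6% for members higher in cortex, 62.8% for members higher in hippocampus and 52.0% for all promoters. A TATA box (TATAAA) was found in 1 member promoter, that of Kcnj1 (1.64%, against 13.1% of all), and a cyclic AMP response element (TGACGTCA) in 0 of 61, against 1.70% of all. An E-box (CACGTG) was found in 3.28% of member promoters against 5.79% of all, and an AP-1 site (TGACTCA) in 1.64% against 3.98%. Both strands were searched, and no motif contains another.

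The silent subunits spread furthest. All 10 were called, 5 higher in hippocampus and 5 in cortex. In hippocampus Kcnf1 had a lowest signal of -3.70, a median of -1.47 and a highest of 0.37, and in cortex the lowest, median and highest signals were 0.95, 1.51 and 2.19. All cortical values lay above all hippocampal ones. The difference was -3.00 ± 0.23 (SE, n = 12, limma adjusted p = 1.61e-09), or 7.97-fold, with 10 of 12 hippocampal arrays above background. Normexp background correction, another way to remove background signal, gave -1.94.

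Kcns1 gave -0.83, 0.10 and 1.32 in hippocampus and 1.85, 2.74 and 3.64 in cortex (lowest, median and highest, as in the values that follow). The ranges did not overlap, and the difference was -2.62 ± 0.18 (limma adjusted p = 3.33e-10). Kcnv1 was also higher in cortex (-1.50). In the other direction, Kcng2 gave 6.47, 6.83 and 7.31 in hippocampus and 2.36, 4.85 and 5.09 in cortex, without overlap. Its difference was 2.25 ± 0.16 (limma adjusted p = 4.87e-10), and 2.07 without Y_Sham animal 4, which held the lowest cortical value. Kcns2 (1.27), Kcng1 (1.11) and Kcng4 (1.08) were higher in hippocampus as well. Kcns2 gave 0.66 with normexp correction and 0.19 among animals whose arrays were scanned after the first scan day (the later scan days, limma adjusted p = 0.604).

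Kcnb2 is a Kv2 gene, of the family that carries the delayed rectifier current and partners the silent subunits. It gave 2.14, 2.40 and 2.57 in hippocampus and 3.11, 3.63 and 4.01 in cortex, without overlap and with a difference of -1.22 (limma adjusted p = 7.47e-08).

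The Kv4 channels, which carry the A-type current of dendrites, and their KChIP calcium sensors went both ways. Kcnd2 gave 6.55, 6.85 and 7.02 in hippocampus and 5.78, 6.26 and 6.49 in cortex. The ranges did not overlap, and the difference was 0.62 ± 0.07 (limma adjusted p = 3.73e-07). Kcnd1 was higher in hippocampus (0.46) and Kcnd3 in cortex (-0.37). With the slide as a random block Kcnd3 was not called (-0.33, limma adjusted p = 0.0574). Kcnip2 gave 8.73, 9.15 and 9.53 in hippocampus and 7.19, 7.94 and 8.30 in cortex, a difference of 1.23. Kcnip3 gave 1.17, 1.79 and 2.31 and 2.46, 2.94 and 3.27, a difference of -1.11. Neither pair of ranges overlapped, and Kcnip1 (-0.49) and Kcnip4 (-0.21) were higher in cortex. Kcnip4 was not called with the slide block (-0.21, limma adjusted p = 0.0601).

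Kv1 channels sit on axons and set the firing threshold. Of 7 tested Kv1 genes, Kcna4 (0.59) and Kcna1 (0.33) were higher in hippocampus and Kcna2 (-1.01) and Kcna3 (-0.68) in cortex. Kcna1 was called neither within the first scan day (0.24, limma adjusted p = 0.0612) nor within the later days (0.48, 0.0614). Within the later days Kcna2 gave -0.53 (limma adjusted p = 0.284) and Kcna3 -1.08. Kcna3 gave -0.41 with normexp correction. Among the Kv beta subunits Kcnab1 (0.89) and Kcnab2 (0.37) were higher in hippocampus and Kcnab3 (-0.98) in cortex. Of the Kv3 genes, known for fast-spiking neurons, Kcnc1 (-0.80) and Kcnc2 (-0.75) were higher in cortex, while Kcnc4 (-0.24) did not pass the test. Of 8 interneuron markers 5 were called higher in cortex (median difference -0.56), and their part in the Kv3 result was not tested.

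In the Eag, Erg and Elk family 7 of 8 genes were higher in cortex, and Kcnh8, an Elk channel gene, in hippocampus. Kcnh8 gave -1.88, -1.46 and 1.34 in hippocampus and -4.81, -4.18 and -0.32 in cortex. The ranges overlapped, and 11 of 12 animals had more in hippocampus. The difference was 2.35 ± 0.34 (limma adjusted p = 9.87e-06). Cortex was above background on 3 of 12 arrays, and with dim values raised to the lowest signal above background the difference was 1.81. Normexp background correction gave 0.62.

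Kcnh5, an Eag channel gene, gave -3.44, -2.96 and -2.20 in hippocampus, where 3 of 12 arrays were above background, and -1.81, -1.06 and -0.27 in cortex. The ranges did not overlap, and the difference was -1.98 (limma adjusted p = 2.63e-09), and -0.71 with normexp correction. Kcnh7 (-1.14), an Erg channel gene, Kcnh1 (-0.83), Kcnh4 (-0.81) and Kcnh3 (-0.77) were higher in cortex too.

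**Figure D2:**
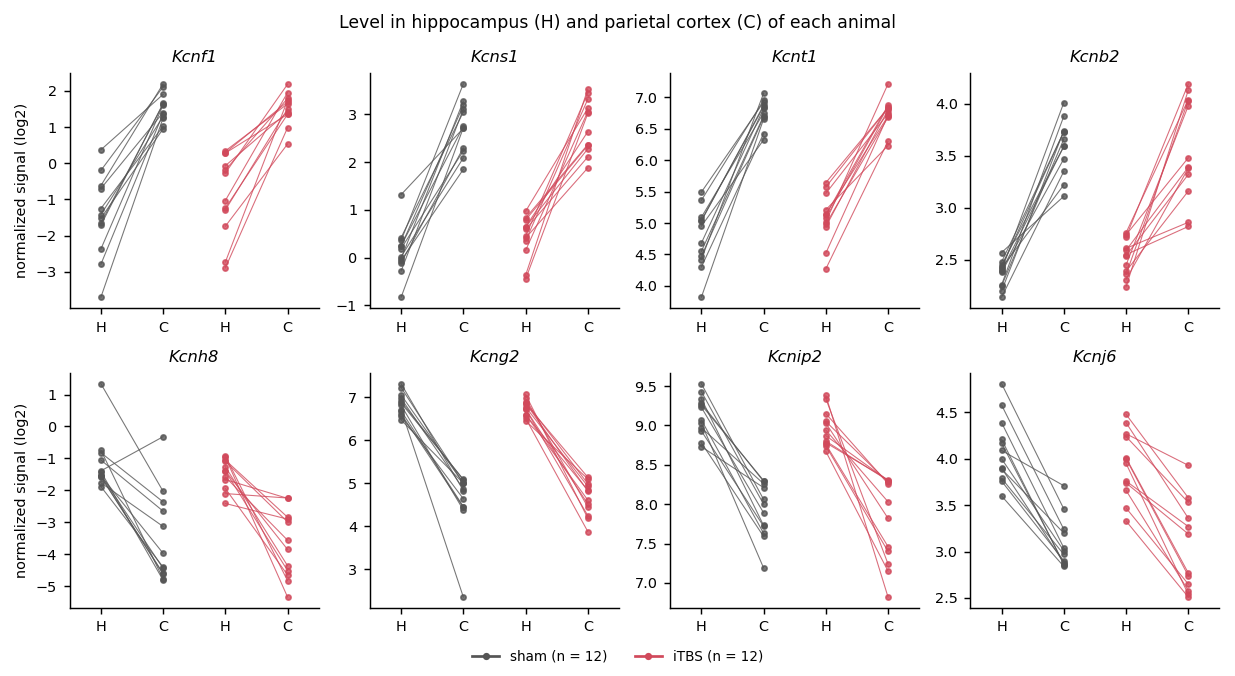
Normalized signal (log2, y axis) of 8 potassium channel genes in hippocampus (H) and parietal cortex (C), with a line for each animal, coloured by sham or iTBS. Kcnf1, Kcns1, Kcnt1 and Kcnb2 were higher in cortex in all 24 animals, Kcng2, Kcnip2 and Kcnj6 higher in hippocampus in all 24, and Kcnh8 higher in hippocampus in 23.

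Kcnt1, a sodium-activated channel gene, had the smallest p of all members. It gave 3.82, 4.82 and 5.49 in hippocampus and 6.32, 6.78 and 7.06 in cortex, without overlap. The difference was -1.98 ± 0.11 (limma adjusted p = 6.66e-12), and its other probes gave -2.01 and -1.97. Its relative Kcnt2 did not pass (0.26, adjusted p = 0.0534).

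Kcnma1, the large-conductance (BK) calcium-activated channel, gave 1.24, 1.40 and 2.28 in hippocampus and 1.71, 2.31 and 2.55 in cortex. It was higher in cortex (-0.70) with overlapping ranges, as was its neuronal subunit gene Kcnmb4 (-0.66), whose ranges did not overlap. The small-conductance channel gene Kcnn2 had a difference of 0.19 (95% confidence interval -0.04 to 0.42) by its brightest probe, or 0.11 without AU_Sham animal 1, and its other probes were called higher in hippocampus (0.49 and 0.89).

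Among 11 inward rectifiers 3 were higher in hippocampus and 5 in cortex. The GIRK subunit gene Kcnj6 gave 3.60, 4.05 and 4.81 in hippocampus and 2.84, 2.99 and 3.71 in cortex. The ranges overlapped, although all 12 animals had more in hippocampus, and the difference was 1.02 (limma adjusted p = 2.51e-08). Its relative Kcnj9 was higher in cortex (-0.92). Kcnj3 (-0.17, interval -0.39 to 0.05) and Kcnj5 (0.19, interval -0.03 to 0.42) did not pass.

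Kcnj11, the pore of the ATP-sensitive channel, was higher in cortex (-0.73), as was Kcnj12 (-0.91). Of the glial rectifiers, Kcnj16 was higher in hippocampus (0.53). Kcnj10 had a difference of 0.07 (interval -0.18 to 0.31), which turned sign with 75th percentile scaling (-0.021).

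Of 12 K2P leak channel genes 7 were higher in cortex and 2 in hippocampus. Kcnk2 and Kcnk4, mechanically gated channels, had differences of -1.30 and -1.30. The acid-sensitive channel genes Kcnk9 (-1.51) and Kcnk3 (-1.34) were above background on 7 and 16 of 24 hippocampal and on 23 and 23 of 24 cortical arrays. With normexp correction they gave -0.46 and -0.60, and Kcnk9 gave -2.55 within the later scan days (limma adjusted p = 0.0609). Kcnk1 gave 6.22, 6.52 and 6.91 in hippocampus and 7.08, 7.40 and 7.74 in cortex, a difference of -0.90 without overlap. Kcnk16 (1.23) and Kcnk5 (0.74), best known from organs other than the brain, were higher in hippocampus.

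Of the Kv7 (M-current) genes, Kcnq5 was called (-0.38), and Kcnq3 (0.22, interval -0.03 to 0.48) and Kcnq1 (-0.10) were not. Another probe of Kcnq3 was called (0.50, limma adjusted p = 0.00538). Of the KCNE subunits, Kcne5 was higher in hippocampus (0.75) and Kcne2 in cortex (-0.57). Without AI_Sham animal 2 the Kcne2 difference was -0.48 (limma adjusted p = 0.0512), and within the later scan days it was -0.05 (0.946). With the slide as a random block neither was called (0.71 for Kcne5 and -0.54 for Kcne2, limma adjusted p = 0.0688 and 0.0827), nor was Kcne5 within the first scan day (0.69, 0.08) or the later days (0.78, 0.131), and normexp correction gave 0.39 for Kcne5. Kcnq5 was also not called with the slide block (limma adjusted p = 0.0815). Choroid plexus, where Kcne2 is abundant, had 8 of 9 markers called higher in hippocampus (median 1.74), and their part in the result was not tested.

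Other probes of the members mostly gave the same direction. Of 36 further probes tested 32 had the sign of the brightest, and of 28 that belonged to called members 23 were called with the same sign. Signs differed between probes for Kcnk6, Kcnk10, Kcnk13 and Kcnn4.

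Among 20 tested genes whose proteins bind or regulate potassium channels, 4 were called higher in hippocampus and 8 in cortex, against 19.2% and 16.7% of all probes (median difference -0.14). The largest differences were those of Dpp10, an auxiliary subunit of Kv4 channels (-1.82), Lgi1, a secreted protein found with Kv1 channels (1.01), Dlg1, a membrane scaffold (-1.01), and Lrrc26, a BK channel subunit (0.91). Limma called 0 of the 20 for Y_iTBS against Y_Sham in hippocampus, where 2 had an unadjusted p under 0.05 (4.54% of all probes), and 0 for age over all animals there, where 3 did (13.3% of all probes).

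In the 12 iTBS animals 54 members were called between the regions (66.7%, against 32.6% of all probes, and 60 members against 41.9% of probes had an unadjusted p under 0.05), 19 higher in hippocampus and 35 in cortex. Of the 59 members called in sham animals 53 (89.8%) were called here in the same direction, and these were 98.1% of the 54. These shares were not set against all probes. By its brightest probe Kcnn2 was called in iTBS animals (0.38) and not in sham animals, and the change between them was not tested over all ages together. With the mean of its probes Kcnn2 was called in sham animals as well (0.52, limma adjusted p = 1.62e-05). Ranges did not overlap for 16 members, against 4.77% of all probes. Differences were -2.31 for Kcnf1, -2.27 for Kcns1, -2.07 for Kcnh5, 2.13 for Kcnh8 and 2.07 for Kcng2. Kcnt1 gave 4.27, 5.11 and 5.64 in hippocampus and 6.23, 6.77 and 7.21 in cortex, again without overlap.

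Both regions of 15 animals were scanned on 1 day, and the other 9 animals were scanned later. Within the first day 55 members were called in sham and 53 in iTBS animals, and within the later days 29 and 32. The shares of all probes called in these fits are given in the last section. For 58 of the 59 members called in sham animals the later days gave the same sign, the exception being Kcnj8, the pore of the vascular ATP-sensitive channel. The later-day sham animals are among those that gave the 59 calls, so this agreement is not independent.

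Whether the regional difference changed with age or iTBS was tested on the hippocampus minus cortex difference of each animal. For aged against young sham animals limma called 0 of 81 members (0.00297% of all probes), and 4 had an unadjusted p under 0.05 (6.46% of all probes). Kcnk3 had the smallest p (-1.44 ± 0.52, limma adjusted p = 0.745), before Kcnk5 (-0.65, and -0.38 without Y_Sham animal 4) and Kcnv2 (0.68). For Y_iTBS against Y_Sham limma called 0 members (0.0% of all probes) and 6 had an unadjusted p under 0.05 (2.66% of all probes), all with a positive change. Kcnv2 (1.11), Kcnf1 (1.78) and Kcnj9 (0.49) had the smallest p. For aged iTBS against aged sham animals limma called 0 members (0.0% of all probes) and 0 had an unadjusted p under 0.05, with Kcns3 (0.41), Kcnk12 (0.32) and Kcnk6 (0.26, and 0.17 without AI_iTBS animal 1) first.

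The next comparisons asked whether iTBS changed the channel genes within a region. Limma called 0 members in young, AU, AI or all aged animals, in either region, and 0 for the difference of the aged and young responses. Among all probes it called 0 in each of these (0.0%), except 2 for AI animals in cortex (0.00613%). By the selection rule of the study (false discovery rate 0.3, minimum z-ratio 1.5), 1 member, Kcnt1, was selected in young hippocampus (0.249% of all probes). This false discovery rate is not the limma adjusted p, whose smallest value there was 0.93 over all probes. The paper names Kcnt1 among altered genes studied in epilepsy, without naming a comparison in that passage. In hippocampus 0 were selected in AU, AI and all aged animals (0.0155%, 0.0528% and 0.00621% of all probes). In cortex 0 were selected in young, AU, AI and all aged animals (0.0865%, 0.0773%, 0.0835% and 0.00618%). With shares this low, 0 selected members does not set the members apart from other probes. The paper lists further criteria (an ANOVA, a z-test and the mean z-score). It reports more genes for its young and aged comparisons than were selected here. Its methods give 8 aged animals, against 16 here, so the sets of aged animals may differ. The values below describe the members of smallest p.

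The young hippocampus held 12 of 80 members at an unadjusted p under 0.05 (15.0%), where 4.54% of all probes reached it, 10 higher and 2 lower in Y_iTBS. Kcnt1 gave 4.55, 3.82, 4.47 and 5.04 in Y_Sham and 4.98, 5.47, 5.57 and 5.02 in Y_iTBS animals. The groups overlapped, and the difference was 0.79 ± 0.25 (limma adjusted p = 0.93), or 0.57 without Y_Sham animal 2. The other probes of Kcnt1 gave 0.82 and 0.74.

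Kcnj9 gave 1.81, 1.51, 1.64 and 1.99 in Y_Sham and 2.02, 2.33, 2.46 and 2.20 in Y_iTBS hippocampus, without overlap. Its difference was 0.51 ± 0.16 (limma adjusted p = 0.93). Kcns1 gave 0.19, -0.11, -0.28 and -0.06 and 0.59, 0.64, 0.79 and 0.83, also without overlap, a difference of 0.78 ± 0.30.

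Kcnf1 gave -1.52, -3.70, -1.71 and -0.62 in Y_Sham and -1.24, 0.34, -0.07 and 0.28 in Y_iTBS hippocampus, overlapping groups with a difference of 1.71, or 1.11 without Y_Sham animal 2. Kcnma1 (0.45), Kcnip3 (0.58), Kcnb2 (0.27), Kcnk12 (0.53), Kcnip1 (0.58, and 0.26 without Y_Sham animal 2) and Kcnh3 (0.25) had positive differences too. Kcnj6 gave 4.39, 4.81, 4.17 and 3.89 in Y_Sham and 4.39, 3.33, 3.47 and 3.74 in Y_iTBS, a difference of -0.58 with overlap, and Kcne5 a difference of -0.84.

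The regional comparison of sham animals shares the Y_Sham animals with this one, so its values stand only side by side. They were -1.98 for Kcnt1, -0.92 for Kcnj9, -2.62 for Kcns1, -3.00 for Kcnf1, 1.02 for Kcnj6 and 0.75 for Kcne5. In Y_iTBS against Y_Sham hippocampus all 9 cortex markers had positive differences (median 0.42, against -0.02 for all probes), with 0 called. Their mean level ranged from 0.98 to 1.42 in Y_Sham and from 1.28 to 1.73 in Y_iTBS hippocampus, and from 2.26 to 2.51 in Y_Sham cortex. All 9 choroid plexus markers had negative differences (median -1.16), with 0 called. The part of these markers in the member values was not tested.

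**Figure D3:**
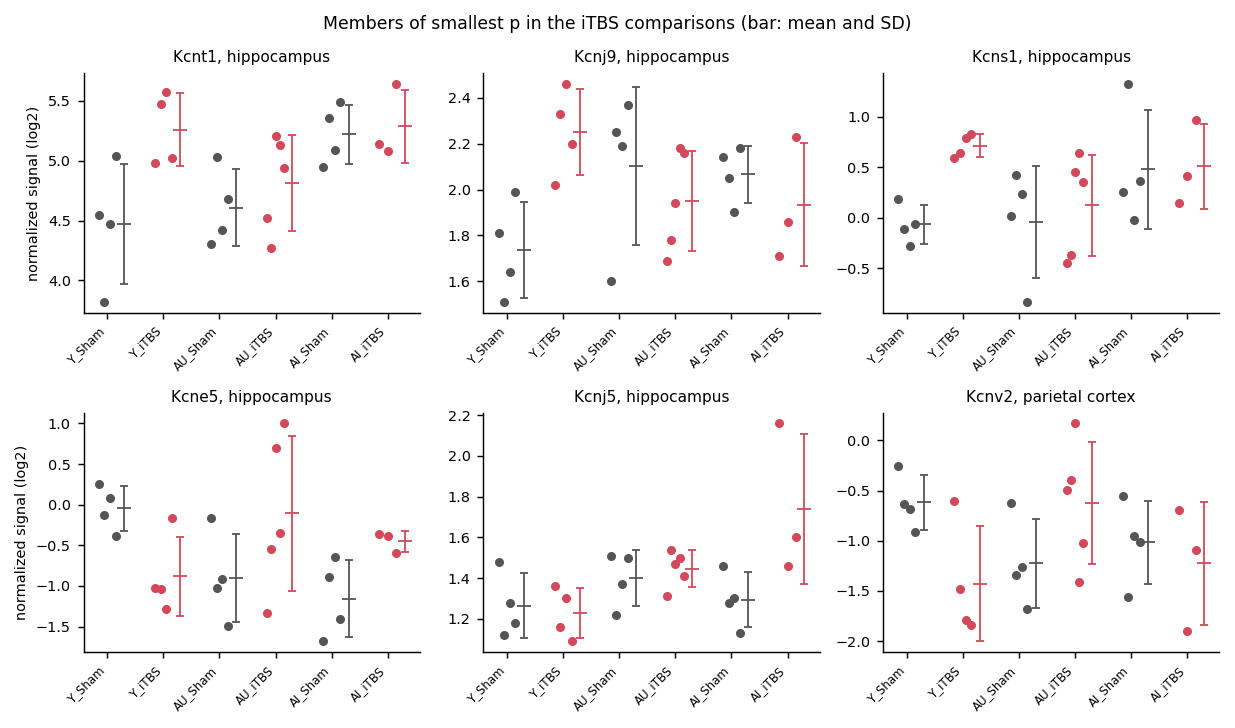
Normalized signal (log2, y axis) of members of smallest p in the iTBS comparisons, in the 6 groups (x axis), with a point for each animal and a bar for the mean and SD of each group. Kcnj9 and Kcns1 do not overlap between Y_Sham and Y_iTBS hippocampus, and 1 AI_iTBS animal lies at 2.16 for Kcnj5.

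In the young cortex 2 of 81 members had an unadjusted p under 0.05 (2.71% of all probes). Kcnv2, a silent subunit, gave -0.25, -0.63, -0.68 and -0.91 in Y_Sham and -0.60, -1.48, -1.79 and -1.84 in Y_iTBS, a difference of -0.81. Kcne5 gave -0.81, -1.89, -0.51 and -1.64 and -2.36, -2.22, -2.83 and -2.14, a difference of -1.18. Every Y_iTBS value of Kcne5 was below every Y_Sham value, and the limma adjusted p was 1.0. Kcne5 is dim in cortex, where it was above background on 21 of 24 arrays. Kcna4 (0.25) had the next smallest p, with 0.12 without Y_Sham animal 4 and 0.38 without Y_Sham animal 2.

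In AU animals 3 members in hippocampus (2.29% of all probes) and 5 in cortex (8.39% of all probes) had an unadjusted p under 0.05. In hippocampus Kcne5 (0.80, and 0.52 without AU_iTBS animal 5) and Kcnh5 (-0.52) were among those. In cortex Kcnh3, an Elk channel gene, gave 7.90, 7.96, 8.18 and 8.02 in AU_Sham and 7.75, 7.20, 7.28, 7.95 and 7.80 in AU_iTBS. The groups overlapped, and the difference was -0.42 ± 0.17 (limma adjusted p = 0.578), before Kcnk10 (-0.50, and -0.17 without AU_Sham animal 4) and Kcna7 (0.63).

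In AI animals 2 members in hippocampus (1.88% of all probes) and 5 in cortex (4.08% of all probes) had an unadjusted p under 0.05. Kcnj5, a GIRK subunit gene, gave 1.46, 1.28, 1.30 and 1.13 in AI_Sham and 2.16, 1.46 and 1.60 in AI_iTBS hippocampus. The difference was 0.45 ± 0.14 (limma adjusted p = 1.0), 0.24 without AI_iTBS animal 1 and -0.14 with the mean of its probes. In cortex it gave 0.32, 1.13, 1.23 and 1.35 and 1.59, 1.69 and 1.52, without overlap, a difference of 0.60, or 0.37 without AI_Sham animal 1.

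Kcnh8 gave -1.54, 1.34, -1.41 and -1.57 in AI_Sham and -1.94, -1.40 and -2.41 in AI_iTBS hippocampus, a difference of -1.12. AI_Sham animal 2 stood far above the others, and without it the difference was -0.41. Kcne5 had a difference of 0.71. In cortex Kcnk13, the leak channel of microglia, had a difference of 0.42, and -0.075 with the mean of its probes.

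Over AU and AI animals together 4 members in hippocampus (2.46% of all probes) and 2 in cortex (2.92% of all probes) had an unadjusted p under 0.05. Kcnj5 (0.25, and 0.14 without AI_iTBS animal 1) and Kcne5 (0.75) had the smallest p in hippocampus. Kcnk15 (-1.09), above background on 5 of 24 cortical arrays, and Kcnj10 (-0.50, and -0.27 without AU_Sham animal 4) were among those of smallest p in cortex.

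For the aged minus the young response 7 members in hippocampus (4.31% of all probes) and 4 in cortex (3.22% of all probes) had an unadjusted p under 0.05. Kcne5 came first in hippocampus, with 0.26, -0.13, 0.08 and -0.38 in Y_Sham, -1.03, -1.04, -1.28 and -0.17 in Y_iTBS and -0.17, -1.03, -0.92 and -1.49 in AU_Sham animals. It gave -1.33, -0.55, 0.70, -0.35 and 1.00 in AU_iTBS, -1.68, -0.89, -0.65 and -1.41 in AI_Sham and -0.36, -0.39 and -0.60 in AI_iTBS animals. Young stimulated and sham values overlapped, and the difference of responses was 1.59 ± 0.48 (limma adjusted p = 0.799). Kcnj9 (-0.66) and Kcnma1 (-0.67) followed, and Kcnv2 (1.01) and Kcne5 (1.42) were among those of smallest p in cortex.

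The last comparisons asked how the channel genes differed with age and cognitive status. Over all animals, aged against young, 1 of 80 members was called in hippocampus (0.512% of all probes). It was Kcnn4, the intermediate-conductance calcium-activated channel, known from red cells, lymphocytes and microglia. In young hippocampus it gave -0.59, -1.29, -1.39 and -1.11 in Y_Sham and -1.53, -1.27, -1.22 and -1.13 in Y_iTBS animals. In aged hippocampus it gave -0.71, -0.78, -1.09 and -0.41 in AU_Sham, -0.76, -0.60, -0.51, -0.54 and -0.41 in AU_iTBS, -0.42, -0.57, -0.22 and -0.72 in AI_Sham and -0.40, -0.43 and -0.12 in AI_iTBS animals. The young animal at -0.59 lay within the aged range, and the other young animals lay below all aged ones.

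The difference of Kcnn4 was 0.67 ± 0.10 (16 aged and 8 young animals, limma adjusted p = 0.00234). It was 0.73 within the first scan day (limma adjusted p = 0.105) and 0.70 within the later days (limma adjusted p = 0.356). A second probe of Kcnn4, above background on 4 of 24 arrays, gave 0.43 (limma adjusted p = 0.439), and the mean of both probes gave 0.55 (limma adjusted p = 0.107). Normexp background correction gave 0.38. Of 8 microglia markers 6 had positive differences in aged hippocampus (median 0.18) and 1, Itgam, was called (0.49). Their mean level ranged from 4.73 to 4.96 in young and from 4.78 to 5.31 in aged hippocampus, and their part in the Kcnn4 result was not tested.

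**Figure D4:**
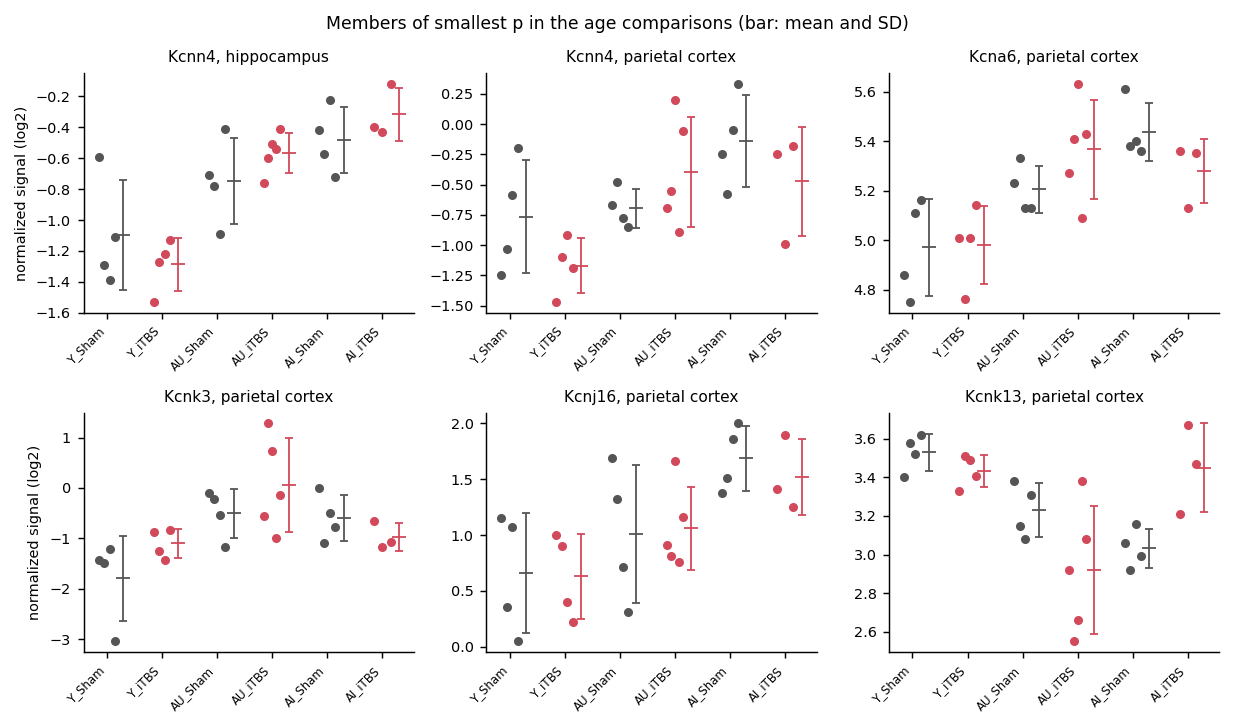
Normalized signal (log2, y axis) of members of smallest p in the age comparisons, in the 6 groups (x axis), with a point for each animal and a bar for the mean and SD of each group. Kcnn4 in hippocampus lies between -1.53 and -0.59 in young and between -1.09 and -0.12 in aged animals.

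In cortex limma called 0 of 81 members for age over all animals (0.402% of all probes). At an unadjusted p under 0.05 were 17 members (21.0%, against 14.3% of all probes), 12 of them higher and 5 lower in aged animals, and 7 in hippocampus (8.75%, against 13.3%). Kcnn4 gave -1.47, -1.06 and -0.20 in young and -0.99, -0.52 and 0.33 in aged cortex, overlapping ranges with a difference of 0.54 (limma adjusted p = 0.171).

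Kcna6, a Kv1 channel gene, had the smallest p in cortex. It gave 4.86, 4.75, 5.11 and 5.16 in Y_Sham, 5.01, 4.76, 5.01 and 5.14 in Y_iTBS and 5.23, 5.33, 5.13 and 5.13 in AU_Sham animals. It gave 5.27, 5.41, 5.63, 5.09 and 5.43 in AU_iTBS, 5.61, 5.38, 5.40 and 5.36 in AI_Sham and 5.36, 5.13 and 5.35 in AI_iTBS animals. Young values ended at 5.16 and aged ones began at 5.09, a small overlap. The difference was 0.35 ± 0.08 (limma adjusted p = 0.0647). It was called with the scan batch as a block (limma adjusted p = 0.0463), with first arrays only (0.0484), without AU_iTBS animal 4 (0.0243) and without AI_iTBS animal 2 (0.0468).

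Kcnj16, a Kir subunit gene of astrocytes, gave 0.05, 0.65 and 1.15 in young and 0.31, 1.35 and 2.00 in aged cortex, a difference of 0.67 ± 0.18 (limma adjusted p = 0.131). Kcnk3 gave -3.04, -1.33 and -0.84 and -1.18, -0.54 and 1.28, a difference of 0.94 ± 0.26 (limma adjusted p = 0.145). Both pairs of ranges overlapped. Without AU_iTBS animal 4, Kcnk13 was called lower in aged cortex (-0.35, limma adjusted p = 0.0363). In hippocampus Kcnn1 (-0.43) and Kcnq5 (-0.30) followed Kcnn4.

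Between aged and young sham animals limma called 0 members in hippocampus (0.00308% of all probes) and 0 in cortex (0.104% of all probes), while 6 (8.22% of all probes) and 11 (9.47% of all probes) reached an unadjusted p under 0.05. Kcnn4 (0.48), Kcnq5 (-0.38) and Kcne5 (-0.99) came first in hippocampus. In cortex Kcnk3 gave -1.43, -1.48, -1.22 and -3.04 in Y_Sham, -0.10, -0.21, -0.53 and -1.17 in AU_Sham and -0.01, -1.09, -0.49 and -0.77 in AI_Sham animals. All aged values lay above all young ones, and the difference was 1.24 ± 0.37 (limma adjusted p = 0.312). Kcnk13 gave 3.40, 3.58, 3.52 and 3.62 in Y_Sham, 3.38, 3.15, 3.08 and 3.31 in AU_Sham and 3.06, 2.92, 3.16 and 2.99 in AI_Sham cortex. All aged values lay below all young ones, with a difference of -0.40, and Kcna6 had a difference of 0.35.

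AI_Sham and AU_Sham animals differ in cognitive status. Limma called 0 members between them in hippocampus (0.0% of all probes) and 0 in cortex (0.0% of all probes), with 4 (4.04% of all probes) and 8 (6.44% of all probes) at an unadjusted p under 0.05. In hippocampus Kcnt1 (0.61) and Kcnq5 (-0.34, and -0.19 without AI_Sham animal 3) were among those of smallest p. Kcnk10, a leak channel gene, gave -0.46, -0.42, -0.20 and 0.97 in AU_Sham and -0.60, -0.26, -1.01 and -0.77 in AI_Sham cortex, overlapping groups with a difference of -0.63, or -0.30 without AU_Sham animal 4, before Kcnip3 (-0.38) and Kcnip4 (-0.31).

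In a test for any difference among the 6 groups limma called 0 members in hippocampus (0.0493% of all probes) and 0 in cortex (0.153% of all probes), while 8 (5.52% of all probes) and 9 (9.16% of all probes) reached an unadjusted p under 0.05. Kcnn4 came first in hippocampus (limma adjusted p = 0.0761), before Kcnt1 and Kcnj5, and Kcnk13 in cortex (limma adjusted p = 0.281), before Kcnk3 and Kcna6.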

How the data were processed

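Per the labels, RNA of each region was labelled with 1 dye and hybridized to Agilent rat arrays. The deposited scanner files hold signal intensity and flags for 62976 features, not normalized between arrays. The authors also deposited z-scores, a standard score of the log signal of each array, and comparison columns holding their own results, which were not used here.

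The log2 of the deposited processed signal was scaled on each array to a z-score over non-control probes, the normalization the methods name, and the scores were brought back to log2 units with the average SD over arrays, 4.08. Flagged spots were left out, and copies of a probe and technical repeats were averaged. Probes entered the tests if 3 or more of 24 animals had them well above background. Accessions were named through RefSeq (assembly GRCr8), which named 46.3% of 45598 probes. The model had 6 group means (limma 3.58.1, R 4.3.3, lmFit and eBayes), fitted between regions to the difference within each animal. The number of arrays limits the precision. In data simulated for Y_iTBS against Y_Sham in hippocampus (32186 probes), 65.5% of 200 probes changed by 1 log2 unit and 8% of 200 changed by 0.5 were called, and for sham animals between regions (33226 probes) 82.5% and 37%.

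Named genes were the 12 largest called regional differences in each direction among members above background on all arrays of a region, the 3 members of smallest p in each other comparison, a list of 15 members, members called within a region, and the genes of counts of 5 or fewer. Others that fill out a family were chosen after their values were seen. Values of some members are not reported here, though counts over members include them. Members, lists and tests were chosen with earlier results of these data known. Alternatives were other normalizations, background correction, filters, repeats, blocks, probes, scan days, the selection rule of the study and leaving out each animal.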

Additional observations from a re-analysis of the deposited data

Results flagged for a closer look

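Among 52 groups of 4 or 5 animals with values given for single animals, 3 held an animal whose gap to its nearest neighbour was large against the range of its group, and chance gives about 1 in 20 such groups. They were Kcna6 in cortex of AI_Sham animal 1 (5.61), Kcnk3 in cortex of Y_Sham animal 4 (-3.04) and Kcnh8 in hippocampus of AI_Sham animal 2 (1.34).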

How the results depend on the processing

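Calls between regions ranged from 57 to 61 members in sham and from 51 to 55 in iTBS animals when each animal was left out, and were 55 (32.0% of all probes) and 53 (33.3%) within the first scan day, 29 (14.3%) and 32 (15.9%) within the later scan days, an alternative chosen after seeing the data and holding 9 animals, and 51 (24.5%) and 50 (24.3%) with the slide as a random block. Kcnn4 remained the 1 member called for age in hippocampus without each animal in turn (1 to 1), and 0 were called with the mean of probes, within the first scan day and within the later days. For any difference among groups in hippocampus, 1 member was called with quantile normalization and 1 with probes above background in all animals (0 to 1 without each animal). For age in cortex 1 was called with first arrays only and 1 with the scan batch as a block (0 to 2 without each animal). The selection rule of the study gave 1 member in young hippocampus. Directions turned within the later days for Kcne5 in AU hippocampus (-0.22), Kcnip3 in AI_Sham against AU_Sham cortex (0.07) and Kcns3 in the regional difference of aged animals (-0.011). With the mean of probes they turned for Kcnj5 in AI (-0.14) and all aged hippocampus (-0.017) and Kcnk13 in AI cortex (-0.075). The regional difference of Kcnj10 turned with 75th percentile scaling (-0.021) and quantile normalization (-0.0094), and ranged from -0.0014 without AI_Sham animal 3 to 0.13 without AI_Sham animal 1. The causes were not tested. Normexp correction, run on median signals after seeing the data because the planned mean-signal version was not run, moved 11 of the 59 regional differences by over 1.5 times. Replicate numbers did not pair the animals (same-number correlations had a mean of 0.07 in hippocampus and 0.09 in cortex). With the replicate number as a block, Kcnn4 gave 0.66 (limma adjusted p = 0.00964), and without the block of animals between regions 57 members were called in sham and 53 in iTBS animals. Dim members, such as Kcnh8 in cortex, are limited by signal over background.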
